A study of Mus musculus with 6 samples.

Results

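Bone morphogenetic proteins (BMPs) and activins are held in check outside the cell by a set of antagonists, and the 9 genes described here encode members of that set: Grem1, Nog, Chrd, Chrdl1, Fst, Fstl1, Fstl3, Bambi and Twsg1. They were chosen by gene symbol, and all 9 were present among the 17457 genes of the expression table. RNA sequencing compared 4 libraries of cultured mesenchymal stem cells (cMSCs) with 2 libraries of primary mesenchymal stem cells (pMSCs), to ask how culture changes the transcriptome of these cells. For cMSCs the mixed cells of collagenase-digested long bones were grown for 10 days in MesenCult medium and then sorted, and for pMSCs the cells were sorted straight from the digest. Every mouse was a 10-week-old wild type C57BL/6J female, and the same gate was used on each sample (viable, CD45-, Ter119-, CD31-, Sca-1+ and PDGFR-α+). Per the study's methods each cMSC library came from 2 mice, and the pMSC libraries were pools of 4 and of 6 mice. Since sorting followed the culture, the cells that gave rise to the cMSCs were not themselves selected by the gate. In such bulk libraries, fewer cells expressing a gene and less of its RNA per cell cannot be told apart.

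BMPs and activins are dimeric ligands of the TGF-β superfamily that bring type I and type II receptor kinases together, after which BMPs activate SMAD1, SMAD5 and SMAD9, and activins activate SMAD2 and SMAD3. In bone, BMPs drive mesenchymal progenitors towards osteoblasts and chondrocytes. Gremlin 1, noggin, chordin and chordin-like 1 bind BMPs and keep them from their receptors, twisted gastrulation works with chordin, follistatin and follistatin-like 3 trap activins and myostatin, and BAMBI is a membrane pseudoreceptor that lacks the kinase domain. Follistatin-like 1 shares a follistatin domain with them and is a secreted glycoprotein of mesenchymal cells.

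The antagonists changed in both directions in cMSCs. Grem1 and Fst rose strongly, Fstl3 rose by less, Chrd, Bambi, Fstl1 and Twsg1 fell, and Chrdl1 did not pass the test. Nog was too weakly expressed to be tested. Levels are FPKM (fragments scaled to transcript length and to the mapped fragments of the library), and a gene is said to have risen or fallen where limma on log2(FPKM + 0.1) gave a Benjamini-Hochberg adjusted p under 0.05 over the 11405 genes that reached 1 FPKM in 2 or more libraries. The log2 fold changes are of cMSCs over pMSCs on that scale, which understates the change of weakly expressed genes. Of the 8 antagonists tested 3 rose, where 48.1% of all genes tested rose, and 4 fell, where 17.6% of all genes tested fell. The median log2 fold change was -0.50 over the 8 antagonists and 0.45 over all genes tested. With median ratio scaling of the libraries, which brings the median of all genes to 0.02, 2 antagonists rose and 5 fell, against 29.3% and 28.6% of all genes tested. For 4 against 2 libraries the smallest p of an exact permutation test is 0.0667, so no such test was used.

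**Figure D1:**
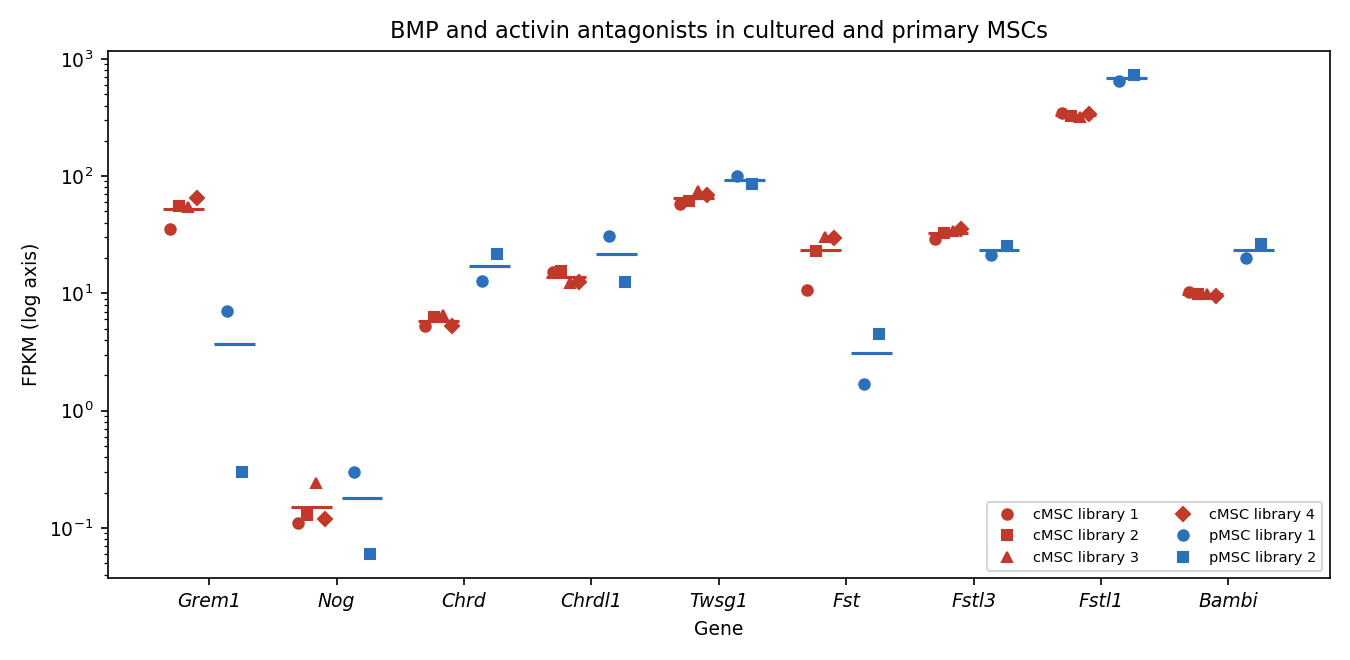
FPKM (log axis) of the 9 antagonists, with cMSC libraries in red, pMSC libraries in blue, 1 symbol shape per library number and a line at each group mean. The 4 cMSC values of Grem1, Fst and Fstl3 lie above both pMSC values, those of Chrd, Twsg1, Fstl1 and Bambi lie below both, and those of Nog and Chrdl1 overlap with pMSCs.

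In 3 antagonists all cMSC values lay above both pMSC values, as they did in 52.3% of all genes tested, and in 4 they lay below both, as in 20.4% of all genes tested. The remaining antagonists, Nog and Chrdl1, overlapped between the groups. The share of antagonists that rose was thus no larger than that of all genes, and the share that fell was larger. With so few genes these shares were not tested, so the direction and size of each gene are given one by one.

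**Figure D2:**
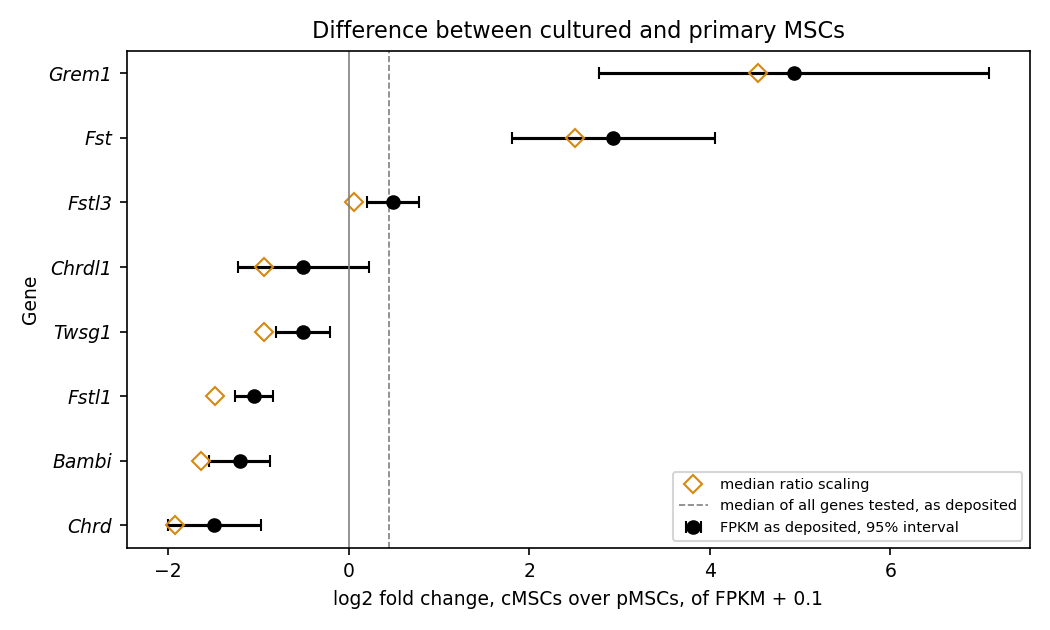
Log2 fold change of the 8 tested antagonists, with black points and 95% intervals from limma on the deposited FPKM, and open diamonds for median ratio scaling. The dashed line marks the median of all genes tested, 0.45, which Fstl3 (0.49) lies close to, while Grem1 and Fst lie far above it.

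Grem1 encodes gremlin 1, a secreted cystine knot protein that binds BMP2, BMP4 and BMP7, and it showed the largest rise of the 9 genes. It lies on chromosome 2 (GRCm38.p6 chr2:113748675-113758648). Grem1 had 35.23, 55.92, 54.92 and 64.91 FPKM in cMSC libraries 1 to 4, against 7.06 and 0.30 FPKM in pMSC libraries 1 and 2. Every cMSC library was above both pMSC libraries, and the pMSC libraries differed 23.5-fold from each other. The means were 52.7 ± 12.5 FPKM in cMSCs (SD, n = 4) and 3.68 ± 4.78 FPKM in pMSCs (SD, n = 2), a 14.3-fold difference. The log2 fold change was 4.93 with a standard error of 0.93 (limma, adjusted p = 0.00204). Its size rested on which pMSC library was used, since it was 7.01 without pMSC library 1 and 2.85 without pMSC library 2. With 1 pMSC library left, the gap between the pMSC libraries no longer enters the test, so only these sizes are given.

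The 250 bases upstream of the start of Grem1 (chr2:113758649-113758898, minus strand), of Chrd (chr16:20732877-20733126, plus strand) and of Fstl1 (chr16:37776805-37777054, plus strand) are shown from RefSeq on GRCm38.p6, since these are the genes with the largest rise, the largest fall and the highest level. The start used for Chrd lies inside the span given for the gene below. RefSeq promoter sequences were at hand for 5 of the 9 antagonists (Grem1, Chrd, Fstl1, Fstl3 and Twsg1). Capitals mark GGCGCC, a GC-rich sequence bound by SMAD proteins, and GTCTG or its reverse complement CAGAC, the SMAD box.
Grem1: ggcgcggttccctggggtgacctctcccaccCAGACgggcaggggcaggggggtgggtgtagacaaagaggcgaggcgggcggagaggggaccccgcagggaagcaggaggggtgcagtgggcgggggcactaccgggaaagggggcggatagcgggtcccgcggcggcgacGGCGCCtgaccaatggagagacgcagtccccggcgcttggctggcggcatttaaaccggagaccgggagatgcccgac
Chrd: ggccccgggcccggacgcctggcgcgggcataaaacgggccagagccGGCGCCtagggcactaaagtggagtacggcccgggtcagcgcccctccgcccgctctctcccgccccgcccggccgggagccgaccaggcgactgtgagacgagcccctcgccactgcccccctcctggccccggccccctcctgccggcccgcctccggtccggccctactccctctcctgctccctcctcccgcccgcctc
Fstl1: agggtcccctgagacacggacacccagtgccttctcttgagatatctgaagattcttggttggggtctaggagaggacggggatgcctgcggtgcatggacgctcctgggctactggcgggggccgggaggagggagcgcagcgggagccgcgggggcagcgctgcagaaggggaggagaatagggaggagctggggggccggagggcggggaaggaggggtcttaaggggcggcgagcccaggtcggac
GGCGCC occurred once in Grem1, 78 bases before the start, and once in Chrd, 203 bases before the start, and it is held by 9.59% of 32851 promoter windows of this length. The SMAD box GTCTG, searched like the others on both strands, occurred once in Grem1, 2 times in Fstl3 and 2 times in Twsg1, and is held by 42.2% of the windows. The TEAD sequence GGAATG (12.6% of windows) and the AP-1 sequence TGANTCA (6.75% of windows) were found in none of the 5 windows on either strand, and the TATA sequence TATAAA (12.4% of windows) was found in that of Fstl3. CpG numbered 24 in Grem1, 22 in Fstl3, 28 in Chrd, 16 in Fstl1 and 16 in Twsg1, against a median of 6 and an upper quartile of 16 over all windows. A match is a description of the sequence, and binding was not measured.

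Chrd encodes chordin, which holds BMPs in an inactive complex until tolloid proteases cut it, and it fell more than any other antagonist tested. Chrd (chr16:20731425-20742384) had 5.31, 6.27, 6.58 and 5.24 FPKM in the cMSC libraries, against 12.70 and 21.47 FPKM in the pMSC libraries. The groups did not overlap, and the pMSC libraries lay further apart than the cMSC libraries. The log2 fold change was -1.49 (standard error 0.22, limma adjusted p = 0.00059). The means were 5.85 ± 0.677 FPKM in cMSCs (SD, n = 4) and 17.1 ± 6.20 FPKM in pMSCs (SD, n = 2). Without pMSC library 1 the log2 fold change of Chrd was -1.87. Without pMSC library 2 it was -1.11, and that of Chrdl1 was then lower still, at -1.15. In the annotation the span of Chrd overlaps Thpo (thrombopoietin), which had 1.22 to 2.08 FPKM in cMSCs and 2.01 and 1.60 FPKM in pMSCs.
Chrdl1 encodes chordin-like 1, a secreted BMP binder related to chordin (chrX:143285674-143394263). It had 15.29, 15.52, 12.21 and 12.59 FPKM in the cMSC libraries, against 30.70 and 12.51 FPKM in the pMSC libraries. Only pMSC library 1 stood apart from the rest. The log2 fold change of -0.50 did not pass the test (95% interval -1.23 to 0.23, limma adjusted p = 0.192). The log2 fold change was -1.15 without pMSC library 2, but 0.14 without pMSC library 1. With median ratio scaling it was -0.93 and passed as lower (adjusted p = 0.0362).
Nog encodes noggin, an antagonist of several BMPs (chr11:89300638-89302559). Nog was near the floor of the table in every library, at 0.11, 0.13, 0.24 and 0.12 FPKM in the cMSC libraries and 0.30 and 0.06 FPKM in the pMSC libraries. The groups overlapped, and a difference was not tested at this level.
Twsg1 encodes twisted gastrulation, which binds BMPs together with chordin and can favour or oppose signalling (chr17:65923065-65951187). Twsg1 had 57.55, 60.84, 74.55 and 68.71 FPKM in the cMSC libraries, against 99.57 and 85.65 FPKM in the pMSC libraries, with no overlap. It fell with a log2 fold change of -0.50 (standard error 0.13, limma adjusted p = 0.00953). The call was lost without pMSC library 1 (-0.40, adjusted p = 0.0551, where its alternatives ranged between 0.000589 and 0.0551).

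FPKM are per length, so 4 of the genes for BMP binders can be set side by side within a library. Their shares do not depend on how libraries are scaled. Twsg1, which also encodes a BMP binder, was left out and had 57.55 to 74.55 FPKM in cMSCs. Grem1 made up 63.0%, 71.8%, 74.3% and 78.3% of the summed FPKM of Grem1, Chrd, Chrdl1 and Nog in the cMSC libraries, against 13.9% and 0.874% in the pMSC libraries. Chrd made up 9.49%, 8.05%, 8.90% and 6.32% in the cMSC libraries, against 25.02% and 62.5% in the pMSC libraries. Chrdl1 held 27.3%, 19.9%, 16.5% and 15.2% in the cMSC libraries and 60.5% and 36.4% in the pMSC libraries, and Nog held at most 0.325% in cMSCs and 0.591% in pMSCs. Grem1 was thus the most abundant of these transcripts in each cMSC library, while Chrdl1 led in pMSC library 1 and Chrd in pMSC library 2. The sum of the 4 genes was 55.9 to 82.9 FPKM in cMSCs, against 50.8 and 34.3 FPKM in pMSCs. With 2 pMSC libraries these shares are given as values and were not tested.

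**Figure D3:**
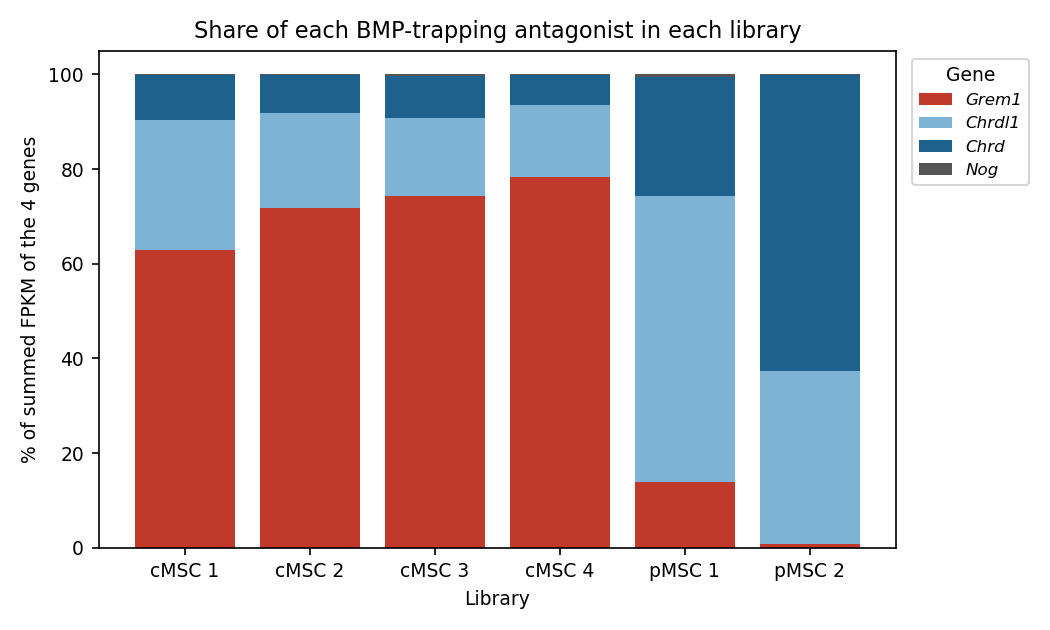
Share (%) of Grem1, Chrdl1, Chrd and Nog in their summed FPKM, 1 bar per library, cMSCs on the left. Grem1 fills 63.0% to 78.3% of each cMSC bar and 13.9% and 0.874% of the pMSC bars.

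Fst encodes follistatin, which binds activins almost irreversibly and also binds myostatin and GDF11. Fst (chr13:114452262-114458989) had 10.73, 23.17, 30.04 and 29.81 FPKM in the cMSC libraries, against 1.70 and 4.46 FPKM in the pMSC libraries. All cMSC libraries were above both pMSC libraries, and cMSC library 1 was the lowest of its group for Fst as it was for Grem1. The means were 23.4 ± 9.05 FPKM in cMSCs (SD, n = 4) and 3.08 ± 1.95 FPKM in pMSCs (SD, n = 2), a 7.61-fold difference. The log2 fold change was 2.93 (standard error 0.49, limma adjusted p = 0.00101), and it was 2.26 without pMSC library 1 and 3.60 without pMSC library 2.
Fstl3 encodes follistatin-like 3, a close relative that lacks one of follistatin's domains and also binds activins and myostatin (chr10:79777274-79782630). It had 28.98, 32.87, 34.10 and 35.30 FPKM in the cMSC libraries, against 21.34 and 25.41 FPKM in the pMSC libraries. The groups did not overlap, and the log2 fold change was 0.49 (standard error 0.13, limma adjusted p = 0.00932), 0.04 above the median of all genes. With median ratio scaling the log2 fold change was 0.06 and the call was lost (adjusted p = 0.723, where its alternatives ranged between 0.00559 and 0.723). Its span overlaps that of Prss57, which had 0.03 to 0.22 FPKM in cMSCs and 0.27 and 1.49 FPKM in pMSCs. The ratio of Fst to Fstl3 was 0.370 to 0.881 in cMSCs, against 0.0797 and 0.176 in pMSCs, so Fstl3 remained the more abundant of the pair in all 6 libraries.
Fstl1 encodes follistatin-like 1, for which binding to BMP4 and to TGF-β family receptors has been described. Fstl1 (chr16:37777055-37836516) was the most abundant antagonist in every library, with 342.10, 326.83, 317.25 and 339.86 FPKM in the cMSC libraries, against 641.28 and 732.74 FPKM in the pMSC libraries. The groups did not overlap and were each narrow. It fell, with a log2 fold change of -1.05 (standard error 0.09, limma adjusted p = 3.5e-05) and means of 332 ± 11.6 FPKM in cMSCs (SD, n = 4) and 687 ± 64.7 FPKM in pMSCs (SD, n = 2). Fstl1 held 58.8% to 67.7% of the summed FPKM of the 9 antagonists in cMSCs, against 76.8% and 80.6% in pMSCs. That sum was 506 to 566 FPKM in cMSCs, against 835 and 909 FPKM in pMSCs. The lower sum in cMSCs rested on Fstl1, without which the summed FPKM of the other antagonists overlapped between the groups.

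Bambi encodes the membrane pseudoreceptor that resembles type I receptors, and it is the only antagonist here that stays in the membrane. It lies on chromosome 18. Bambi had 10.37, 9.81, 9.85 and 9.58 FPKM in the cMSC libraries, against 19.90 and 26.58 FPKM in the pMSC libraries. The groups did not overlap, and the cMSC libraries were within 1.08-fold of each other. It fell with a log2 fold change of -1.21 (standard error 0.14, limma adjusted p = 0.000171). Its ratio to Bmpr1a, a type I BMP receptor, was 1.71 to 1.87 in cMSCs, against 4.27 and 4.75 in pMSCs.

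By mean FPKM the order in cMSCs was Fstl1, Twsg1, Grem1, Fstl3, Fst, Chrdl1, Bambi, Chrd and Nog. The ranges of neighbours overlapped from Twsg1 through Chrdl1, and they did not overlap between Fstl1 and Twsg1 or among Chrdl1, Bambi, Chrd and Nog. In pMSCs the order was Fstl1, Twsg1, Fstl3, Bambi, Chrdl1, Chrd, Grem1, Fst and Nog. There the ranges of neighbours overlapped from Fstl3 through Chrd and between Grem1 and Fst. Grem1 took the third rank in cMSCs and the seventh in pMSCs, while Fstl1, Twsg1 and Nog kept their ranks.

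The ligands that these antagonists bind also moved apart. Of 8 BMP and GDF ligands tested 2 rose, 3 fell and 3 were not called, with a median log2 fold change of -0.30. Bmp2, a strong inducer of bone formation, had 0.72, 0.70, 0.91 and 0.94 FPKM in the cMSC libraries, against 12.76 and 10.93 FPKM in the pMSC libraries (log2 fold change -3.71, limma adjusted p = 4.79e-06). Bmp6 fell as well, with 0.06 to 0.21 FPKM in cMSCs and 4.70 and 4.79 FPKM in pMSCs. Bmp4, the most abundant BMP ligand tested, had 73.19, 58.40, 69.28 and 52.78 FPKM in the cMSC libraries, against 64.28 and 58.72 FPKM in the pMSC libraries. Its log2 fold change of 0.03 did not pass the test (adjusted p = 0.852), and it was -0.40 with median ratio scaling (adjusted p = 0.0464, where its alternatives ranged between 0.0464 and 0.948). Bmp7 rose, with 1.90, 1.10, 1.84 and 1.69 FPKM in the cMSC libraries and 1.17 and 0.01 FPKM in the pMSC libraries, but its groups overlapped and its call (adjusted p = 0.0452) was lost in 11 of 16 alternatives. Without pMSC library 1 its log2 fold change was 3.95 and without pMSC library 2 it was 0.42, against 2.18 with both. Gdf6 rose by 1.68 on the log2 scale, was 0.75 without pMSC library 1 and 2.61 without pMSC library 2, and lost the call in 6 of 16 alternatives. Gdf5, a ligand of joint and tendon formation, did not pass at a log2 fold change of 0.88 (adjusted p = 0.072), but passed as higher without cMSC library 2 (1.08). Its log2 fold change was 1.38 without pMSC library 2 and 0.38 without pMSC library 1.
With median ratio scaling none of the 8 BMP and GDF ligands rose and 5 fell. Grem1 over Bmp4 was 0.481, 0.958, 0.793 and 1.23 in the cMSC libraries, against 0.110 and 0.00511 in the pMSC libraries, while Chrd over Bmp4 was 0.0726 to 0.107 in cMSCs, against 0.198 and 0.366 in pMSCs. The summed Grem1, Nog, Chrd and Chrdl1 over summed Bmp2, Bmp4 and Bmp7 came to 0.738, 1.29, 1.03 and 1.495 in the cMSC libraries, against 0.649 and 0.493 in the pMSC libraries. For this choice of genes all cMSC ratios lay above the pMSC ratios, by little in cMSC library 1. Twsg1 and Nbl1 (DAN), which also encode BMP antagonists, are outside the sum. Twsg1 was higher in pMSCs and Nbl1 overlapped between the groups. With Twsg1 added to the sum, or with both added, cMSC library 1 lay below both pMSC libraries and the groups overlapped. The order thus depended on the choice of genes.

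On the activin side, Inhba, which encodes the subunit of activin A, rose, with 33.34, 32.32, 37.59 and 35.09 FPKM in the cMSC libraries, against 24.00 and 15.29 FPKM in the pMSC libraries (log2 fold change 0.85, limma adjusted p = 0.00329). With median ratio scaling Inhba was 0.41 higher and no longer passed (adjusted p = 0.0811, the highest of its alternatives, the lowest being 0.000158), and it was 0.52 without pMSC library 2. Mstn, the muscle growth inhibitor myostatin, had 0.01, 0.01, 0.01 and 0.06 FPKM in the cMSC libraries, against 53.91 and 65.17 FPKM in the pMSC libraries (log2 fold change -8.94). Inhbb fell at a low level, with 0.17 to 0.38 FPKM in cMSCs and 1.67 and 1.17 FPKM in pMSCs, and Gdf11 did not pass (log2 fold change -0.15, adjusted p = 0.735). In all, 1 of the 4 ligands tested rose and 2 fell.
Fst over Inhba was 0.322, 0.717, 0.799 and 0.850 in the cMSC libraries, against 0.0708 and 0.292 in the pMSC libraries. Fstl3 over Inhba overlapped between the groups, at 0.869 to 1.02 in cMSCs and 0.889 and 1.66 in pMSCs. Summed Fst and Fstl3 over summed Inhba, Inhbb, Mstn and Gdf11 came to 1.14, 1.66, 1.67 and 1.78 in the cMSC libraries, against 0.284 and 0.363 in the pMSC libraries. The numerator was higher and the denominator lower in cMSCs, the summed ligands being 33.7 to 38.4 FPKM in cMSCs and 81.1 and 82.4 FPKM in pMSCs. The lower denominator rested on Mstn, without which the summed ligands were higher in cMSCs, at 33.7 to 38.4 FPKM in cMSCs and 27.2 and 17.2 FPKM in pMSCs. The ratio without Mstn overlapped between the groups, at 1.14 to 1.78 in cMSCs and 0.846 and 1.74 in pMSCs.

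**Figure D4:**
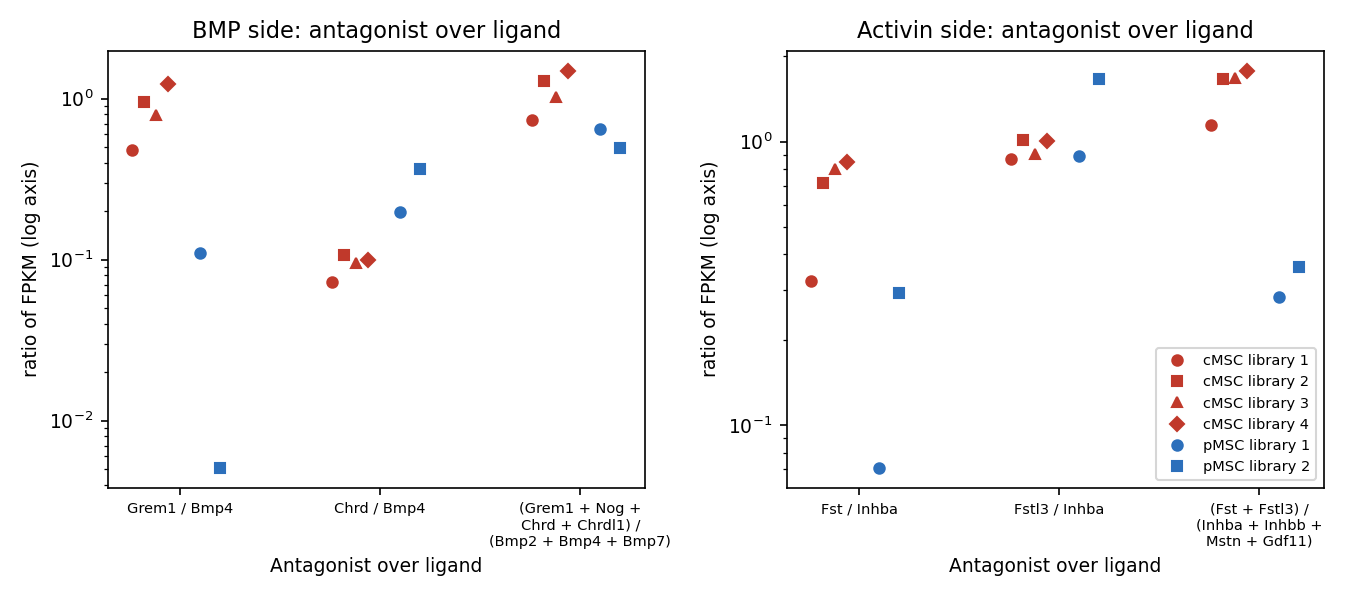
Ratio of antagonist to ligand FPKM (log axis) in each library, with cMSC libraries in red and pMSC libraries in blue. The ratio of Fst and Fstl3 to activin and myostatin ligands is 1.14 to 1.78 in cMSCs and 0.284 and 0.363 in pMSCs, while Fstl3 over Inhba alone overlaps between the groups. Without Mstn (not drawn) the former ratio overlaps too, at 0.846 and 1.74 in pMSCs.

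Of 10 receptors and co-receptors tested 1 rose, 3 fell and 6 did not pass, with a median log2 fold change of -0.13, and with median ratio scaling 1 rose and 5 fell. Bmpr1b, a type I BMP receptor, rose, with 4.13 to 4.93 FPKM in cMSCs and 0.52 and 1.77 FPKM in pMSCs (log2 fold change 2.12, and 1.32 without pMSC library 1). Acvrl1 (ALK1), the type I receptor for BMP9 and BMP10 known from endothelium, fell, with 0.68 to 1.07 FPKM in cMSCs and 9.70 and 22.68 FPKM in pMSCs. The BMP co-receptor Rgmb fell by 1.57 on the log2 scale. Bmpr2, a type II receptor, fell, with 2.48 to 2.77 FPKM in cMSCs and 5.11 and 3.99 FPKM in pMSCs. Bmpr1a and Acvr2a overlapped between the groups (log2 fold changes 0.12 and 0.13, adjusted p = 0.51 and 0.677), and Acvr2b was below the filter, at 0.04 to 0.07 FPKM in cMSCs and 0.26 and 0.25 FPKM in pMSCs.

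Of 9 SMAD and SMURF genes tested 3 rose, 1 fell and 5 did not pass, and with median ratio scaling 1 rose and 2 fell. Smad7, an inhibitory SMAD induced by TGF-β, activin and BMP signals, rose, with 10.61, 9.44, 11.76 and 8.02 FPKM in the cMSC libraries, against 3.30 and 3.16 FPKM in the pMSC libraries (log2 fold change 1.58, limma adjusted p = 0.000138). Smad6, the inhibitory SMAD of BMP signalling, was not called at a log2 fold change of 0.12 (adjusted p = 0.671). The ubiquitin ligase Smurf2 rose by 0.76, a call lost in 3 of 16 alternatives, median ratio scaling among them, and Smad4, the SMAD that all branches share, fell by 0.84 on the log2 scale.
Of 10 BMP response genes tested 5 rose, 4 fell and 1 did not pass, where 48.1% of all genes tested rose and 17.6% fell. With median ratio scaling 4 of them rose and 4 fell. Id1 had 210.97, 134.66, 193.77 and 118.44 FPKM in the cMSC libraries, against 70.78 and 61.34 FPKM in the pMSC libraries (log2 fold change 1.28, limma adjusted p = 0.00167), and Atoh8 and Msx2 rose by 2.12 and 2.98 on the log2 scale (Msx2 by 1.73 without pMSC library 2). Id1, Id2 and Id3 encode inhibitors of basic helix-loop-helix factors, and they did not move together. Id3 rose by 0.60 on the log2 scale, a call lost in 8 of 16 alternatives, while Id2 had 88.30 to 130.35 FPKM in cMSCs and 214.83 and 148.20 FPKM in pMSCs, a fall of 0.75 on the log2 scale that came to -0.48 and was lost without pMSC library 1. Msx1 fell, with 1.48 to 2.08 FPKM in cMSCs and 34.12 and 33.74 FPKM in pMSCs, and Hey1 fell by 2.34 on the log2 scale.
Of 7 activin and TGF-β response genes 3 rose, 3 fell and 1 did not pass, and with median ratio scaling 2 rose and 3 fell. Smad7, also of this list, rose by 1.58 on the log2 scale, while Pmepa1 and Skil, both feedback inhibitors of SMAD signalling, fell by 2.62 and 1.14 on the log2 scale (Skil was -0.65 without pMSC library 1, and its call was lost).

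Further secreted modulators were compared with the 9 antagonists. Of 7 tested 3 rose and 4 were not called, while with median ratio scaling 2 rose and 2 fell. Crim1, a membrane protein with chordin-like repeats, rose, with 5.82, 5.49, 6.12 and 4.78 FPKM in the cMSC libraries, against 1.89 and 2.12 FPKM in the pMSC libraries (log2 fold change 1.42, limma adjusted p = 0.000213). Of the proteases and enhancers that act on chordin and procollagen, Bmp1, a tolloid protease that cuts chordin, fell, with 10.62, 12.65, 11.00 and 13.68 FPKM in the cMSC libraries, against 34.10 and 50.95 FPKM in the pMSC libraries (log2 fold change -1.80, limma adjusted p = 7.7e-05), and the enhancer Pcolce2 fell by 2.50 on the log2 scale. Bmp1 over Chrd, the protease over its substrate, was 1.67 to 2.61 in cMSCs and 2.69 and 2.37 in pMSCs, so the ratio overlapped between the groups while both genes fell.

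**Figure D5:**
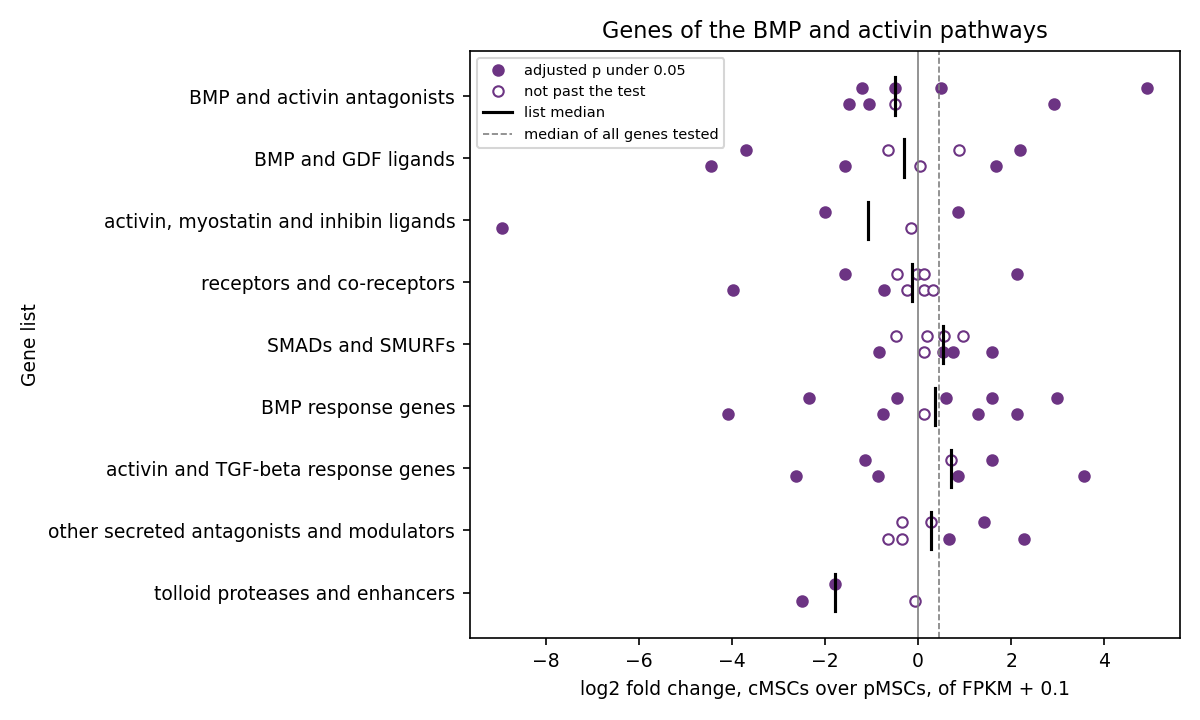
Log2 fold change of each tested gene of the antagonists and of 8 pathway lists, filled where the adjusted p was under 0.05, with a bar at each list's median and a dashed line at the median of all genes tested (0.45). Bmp1, Pcolce2 and Pcolce (-0.06, not past the test), the 3 tested genes of the list of tolloid proteases and enhancers, lie below 0, the other lists spread over both sides of 0, and Mstn (-8.94) and Grem1 (4.93) mark the ends.

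Genes with a pattern most like Grem1, by root mean square distance of mean-centred log2(FPKM + 0.1) over the 6 libraries, were Angpt4 (distance 0.42), Oip5 (0.47) and Foxred2 (0.49). Angpt4, an angiopoietin, had 9.66 to 11.93 FPKM in cMSCs, against 1.04 and 0.05 FPKM in pMSCs, and, as for Grem1, pMSC library 2 lay far below pMSC library 1. Without pMSC library 2 the log2 fold changes of Oip5 and Foxred2 were 2.81 and 2.14, against 4.41 and 3.98 with both. Those most like Chrd were Faah (0.11), Htra1 (0.12) and Ly6c1 (0.12). Htra1, a secreted serine protease, had 126 to 157 FPKM in cMSCs, against 319 and 554 FPKM in pMSCs.

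Transcripts of the sort markers were present in both groups. Pdgfra had 35.5 to 43.1 FPKM in cMSCs and 66.8 and 72.7 FPKM in pMSCs, and Ly6a (Sca-1) had 1117 to 1190 FPKM in cMSCs and 1056 and 1711 FPKM in pMSCs, while Pecam1 (CD31) was at most 0.08 FPKM in cMSCs and 0.62 FPKM in pMSCs. Of 12 macrophage markers 11 were tested and all rose, with a summed level of 90.1 to 315 FPKM in cMSCs and 16.4 and 23.5 FPKM in pMSCs, and Mrc1 was listed at 0 in both pMSC libraries. Lyz2 made up most of each sum, with 60.6 to 221 FPKM in cMSCs and 11.8 and 18.1 FPKM in pMSCs. In cMSC libraries 1 to 4 the macrophage sum was 247, 315, 90.1 and 252 FPKM. All 6 proliferation genes rose, with sums of 403 to 499 FPKM in cMSCs and 13.8 and 15.4 FPKM in pMSCs. Summed osteoblast markers were at 33.5 to 42.2 FPKM in cMSCs and 1410 and 642 FPKM in pMSCs, and summed chondrocyte markers at 985 to 1526 FPKM in cMSCs and 8691 and 9619 FPKM in pMSCs. Of the 6 chondrocyte markers 3 fell, Comp and Chad making up most of the pMSC sum, 2 did not pass, and Col2a1 rose, with 331 to 723 FPKM in cMSCs and 171 and 38.0 FPKM in pMSCs. Erythroid markers summed to 0.20 to 0.61 FPKM in cMSCs and 239 and 150 FPKM in pMSCs, and endothelial markers to 0.11 to 0.43 FPKM in cMSCs and 3.14 and 4.37 FPKM in pMSCs, of which Tek made up 2.71 and 3.70 FPKM, while Cdh5, Kdr, Tie1 and Emcn were at most 0.30 FPKM in cMSCs and 0.25 FPKM in pMSCs. Mural, neutrophil and skeletal muscle markers had sums of at most 11.5 FPKM in cMSCs and 25.2 FPKM in pMSCs. The mural sum hides a fall of Rgs5 (0.13 to 0.58 FPKM in cMSCs, 21.37 and 10.09 FPKM in pMSCs) and a rise of Cnn1 (5.92 to 10.61 FPKM, against 1.61 and 0.03 FPKM). Likewise the skeletal muscle marker Acta1 rose (2.12 to 5.46 FPKM, against 0.03 and 0.10 FPKM) while Tnnt3 fell. The part of these cells in the changes of the antagonists was not tested.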

How the data were processed

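Long bone MSCs were sequenced from SMART-Seq v4 libraries, 4 of cMSCs and 2 of pMSCs. The authors cleaned reads with SOAPnuke, used HISAT2 2.0.4 for GRCm38.p6 and Bowtie2 2.2.5 for the reference genes, estimated levels with RSEM 1.2.8 and deposited FPKM values with 2 decimals for 17457 genes. Read counts behind a value are unknown, so counting error could not be given. The FPKM summed to 612104 to 642497 in cMSC libraries and to 571471 and 559601 in pMSC libraries. A column of the authors' log2 fold changes (DESeq2) was not used.

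The 11405 genes that reached 1 FPKM in 2 or more libraries were tested in limma 3.58.1 in R 4.3.3 on log2(FPKM + 0.1), with a linear model of the groups, moderated variances with a trend and Benjamini-Hochberg adjustment over all genes tested. The count test that the authors used (DESeq2) could not be run on FPKM. The script was tested on simulated data. The libraries are pools of mice, and p-values measure the spread between these pools only. The antagonists, pathway lists and marker lists were chosen with earlier results of these data known. Named genes are the antagonists, their main ligands, receptors and response genes, the 2 largest rises and falls past the test per pathway list, and the genes nearest to Grem1 and Chrd. The rule also covers the 2 most abundant genes of each marker list, some of which are given only in list sums. Some genes that the rule names are not reported here.

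The tests were repeated with pseudocounts of 0.01 and 1, without a filter or with a filter on the mean (1 FPKM), after rescaling to TPM, with median ratio scaling, quantile normalization, limma without a trend or with robust moderation, with a block for the sample number, and without each library in turn. The block took the group difference from libraries 1 and 2 of each group, since numbers 3 and 4 occur only in cMSCs. Where 1 pMSC library was left, it was assumed to vary like the cMSCs. Positions and promoters are from RefSeq on GRCm38.p6. Figures used Python 3.11.15 and matplotlib 3.10.9.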

Additional observations from a re-analysis of the deposited data

Results flagged for a closer look

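In 6 of the 53 genes looked at, 1 of the 4 cMSC libraries lay far from the other three by Dixon's test, which chance does in about 1 group in 20. Nog was 0.24 FPKM in library 3, against 0.11 to 0.13 in the others. Mstn was 0.06 FPKM in library 4 and 0.01 in the others, and Gdf11 was 0.61 FPKM in library 3, against 1.07 to 1.15. Msx1 was 1.48 FPKM in library 3, against 2.04 to 2.08, and Msx2 was 3.42 FPKM in library 1, against 1.98 to 2.16. Ly6c1 was 376.11 FPKM in library 3, against 340 to 346.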

How the results depend on the processing

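Over 16 alternatives Grem1 and Fst kept their rise and Chrd, Fstl1 and Bambi their fall. In those that left 1 pMSC library, the gap between the pMSC libraries did not enter the test. Fstl3 lost its call after rescaling to TPM (0.35), with median ratio scaling (0.056), with quantile normalization (0.080) and with the replicate block (0.40, adjusted p = 0.0665). Chrdl1 passed as lower with median ratio scaling (-0.93) and quantile normalization (-0.90), and leaving out 1 library gave -1.15 to 0.14. Leaving out 1 library gave -0.61 to -0.40 for Twsg1, 2.85 to 7.01 for Grem1, 3 antagonists higher each time and 3 to 5 lower. Genes called higher and lower over the whole table numbered 5485 and 2008, but 3346 and 3267 with median ratio scaling and 3656 and 3039 with quantile normalization, and causes were not tested.

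Some named genes changed sign. With TPM, median ratio scaling and quantile normalization Bmp4 was -0.11, -0.40 and -0.35, Bmpr1a -0.017, -0.31 and -0.20, Acvr2a -0.0052, -0.29 and -0.086, and Smad6 -0.014, -0.30 and -0.13. Leaving out 1 library gave -0.040 to 0.12 for Bmp4, -0.66 to 0.35 for Gdf11, -0.0077 to 0.25 for Bmpr1a, -0.10 to 0.36 for Acvr2a, -0.17 to 0.41 for Smad6 and -0.56 to 0.14 for Ly6a. Gdf11 was 0.015 with the replicate block.

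No label or method ties samples of the same number to shared mice or days. Deviations from the group mean correlated at 0.12 and 0.05 between libraries with the same number. The deviations of 2 pMSC libraries mirror each other, and cMSC library 4 correlated at -0.105 with pMSC library 1. These correlations therefore cannot decide whether the numbers mark pairs. Numbers 3 and 4 occur only in cMSCs, so a replicate block on the number took the group difference from libraries 1 and 2 of each group alone. Pairing by number and the use of fewer libraries cannot be told apart in it. With this block 4594 genes were higher and 1597 lower, and among the antagonists the block ended the call of Fstl3 and no other. It also ended those of Bmpr2 (-0.69), Smad4 (-0.69) and Gdf6 (1.25) and of no further named gene outside the marker lists. The FPKM carry no counts, so differences of weakly expressed genes such as Nog cannot be resolved.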

Other observations

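The wide gap of Grem1 between the pMSC libraries was uncommon. Grem1 was among 30 of the 11405 genes tested (0.263%) that were at least 10-fold higher in pMSC library 1 than in pMSC library 2 on FPKM + 0.1, and 12 genes lay that far the other way. Of the 30 genes 17 rose in cMSCs, where 48.1% of all genes tested rose. Bmp7, with 1.17 and 0.01 FPKM in pMSC libraries 1 and 2, was another.

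Among the cMSC libraries, library 1 had the lowest value for 5 of the 9 antagonists, among them Grem1 and Fst. It was at least 2-fold below each other cMSC library for 120 of the genes tested (1.05%). Nbl1, which encodes the BMP antagonist DAN and was chosen after its values were seen, had 68.11 FPKM in cMSC library 1 and 183.61 to 299.96 FPKM in the other cMSC libraries, against 271.32 and 264.63 FPKM in pMSCs, and its log2 fold change did not pass the test (-0.65, limma adjusted p = 0.287).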
